A study of Mus musculus with 8 samples.

Results

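The genes of the small leucine-rich proteoglycans and of Abi3bp were examined in regenerating mouse muscle. The 10 members were Dcn, Bgn, Aspn, Lum, Fmod, Prelp, Omd, Ogn, Chad and Abi3bp, taken by symbol as the rows of the deposited table whose platform annotation names 1 of these genes alone. They are 10 of the 19752 genes so named, each member had 1 row, and 9 of the 10 lay above the filter on dim rows, the 25th percentile of row means (a log2 intensity of 6.35). Omd, at 5.14 to 5.79, was below it. The members were chosen by their measured levels on all 8 arrays, by genotype and by the number in the sample title, so both sets of values are given as descriptions with no test of their own.

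One group was male C57BL/6 mice that carry Foxp3-Cre and a floxed ST2 gene (ST2 flox), and the controls were male C57BL/6 mice that carry Foxp3-Cre with the ST2 WT gene (ST2 WT). ST2 is the receptor for interleukin-33, and Foxp3-Cre acts in regulatory T cells and not in muscle fibres or fibroblasts. The labels do not give the zygosity of the alleles. In all mice the tibialis anterior was frozen with a metal probe chilled in liquid nitrogen for 8 seconds, and the whole muscle was taken 8 days later. Age is 10 weeks by the labels and 2 months by the series text. Each group had 4 samples with 1 Affymetrix Mouse Gene 1.0 ST array each, called here flox arrays 1 to 4 and WT arrays 1 to 4 after the numbers in the sample titles. The labels state neither what the numbers stand for nor that each sample is a separate animal, so p-values cover the spread between these samples only, which may be technical. Median intensity per array lay between 185 and 189. All 10 muscle fibre markers were above the filter on every array, with log2 levels of 11.5 to 13.9. Values are log2 of the authors' intensity unless stated, and levels of different genes are not compared, since each probeset has its own brightness. In whole muscle, fewer cells of a type and less RNA per cell cannot be told apart.

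Small leucine-rich proteoglycans are secreted proteins with a bent stack of leucine-rich repeats, most of which bind collagen and control how fibrils form and how thick they grow. Many carry glycosaminoglycan chains (chondroitin, dermatan or keratan sulfate), and several bind growth factors such as TGF-beta or, when set free from the matrix, signal through receptors such as Toll-like receptors. In injured muscle, fibroblasts and fibro-adipogenic progenitors lay down this matrix while fibres regenerate. The family is sorted into classes by sequence: Dcn, Bgn and Aspn are class I, Lum, Fmod, Prelp and Omd class II, Ogn class III, and Chad is a non-canonical class IV member. Abi3bp, a matrix protein named for its binding to the SH3 domain of ABI3, has no leucine-rich repeats and is no family member.

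Many genes of the family are neighbours on the chromosomes. In the RefSeq gene order of GRCm38.p6, counting protein-coding genes only, Dcn is followed by Lum and Lum by Kera on chromosome 10, Optc by Prelp and Prelp by Fmod on chromosome 1, and Ecm2, Aspn, Omd and Ogn stand in a row on chromosome 13. Bgn on chromosome X, Chad on chromosome 11 and Abi3bp on chromosome 16 have no member beside them. Promoter windows of 300 bases (250 before the start and 50 after it, RefSeq, GRCm38.p6) were found for 7 of the 10 members. Those shown are of Aspn and Ogn, near neighbours whose levels moved together over the arrays, of Prelp and Fmod, neighbours whose levels did not, and of Chad, whose pattern stood apart from most of the family. Capitals mark matches on either strand to TATAAA (the TATA box), TGANTCA (AP-1, the Fos and Jun site) or GGAATG (TEAD, the effectors of YAP). The windows are chr13:49544193-49544492 on the plus strand for Aspn, chr13:49607765-49608064 on the plus strand for Ogn, chr1:133921352-133921651 on the minus strand for Prelp, chr1:134037004-134037303 on the plus strand for Fmod and chr11:94564797-94565096 on the plus strand for Chad.
Aspn: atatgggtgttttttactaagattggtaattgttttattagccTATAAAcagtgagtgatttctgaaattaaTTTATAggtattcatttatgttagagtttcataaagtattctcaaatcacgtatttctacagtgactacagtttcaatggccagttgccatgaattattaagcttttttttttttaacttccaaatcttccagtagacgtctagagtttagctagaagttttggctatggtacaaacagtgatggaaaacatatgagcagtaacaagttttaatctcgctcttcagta
Ogn: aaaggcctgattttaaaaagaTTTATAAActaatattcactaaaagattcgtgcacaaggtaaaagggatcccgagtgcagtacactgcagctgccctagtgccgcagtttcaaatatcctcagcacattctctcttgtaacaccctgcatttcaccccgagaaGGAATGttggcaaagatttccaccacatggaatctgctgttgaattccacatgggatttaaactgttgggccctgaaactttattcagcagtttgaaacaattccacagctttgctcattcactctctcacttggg
Prelp: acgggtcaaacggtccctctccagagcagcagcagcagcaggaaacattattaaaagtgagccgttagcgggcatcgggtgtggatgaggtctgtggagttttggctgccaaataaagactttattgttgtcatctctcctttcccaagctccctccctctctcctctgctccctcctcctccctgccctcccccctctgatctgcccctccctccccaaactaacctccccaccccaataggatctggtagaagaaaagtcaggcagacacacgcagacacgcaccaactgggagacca
Fmod: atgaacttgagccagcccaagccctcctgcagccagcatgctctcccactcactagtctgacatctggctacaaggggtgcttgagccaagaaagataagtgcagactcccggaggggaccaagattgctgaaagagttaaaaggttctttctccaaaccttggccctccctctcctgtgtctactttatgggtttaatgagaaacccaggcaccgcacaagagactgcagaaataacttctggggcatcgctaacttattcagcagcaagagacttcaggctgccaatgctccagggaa
Chad: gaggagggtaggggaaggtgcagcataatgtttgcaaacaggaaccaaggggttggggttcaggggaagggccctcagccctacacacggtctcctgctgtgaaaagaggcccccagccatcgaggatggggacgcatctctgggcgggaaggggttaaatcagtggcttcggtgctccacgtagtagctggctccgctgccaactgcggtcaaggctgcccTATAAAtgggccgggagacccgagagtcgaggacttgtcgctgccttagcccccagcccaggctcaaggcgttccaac
TATAAA was found in 13.6% of all 32851 windows, TGANTCA in 7.81% and GGAATG in 14.7%. Chad held TATAAA with its first base at -28 from the start, the usual place of a TATA box. Aspn held it at -207 and -178 and Ogn at -229 and -227 (overlapping matches, the first on the opposite strand), and Ogn held GGAATG at -86. Prelp, Fmod, Bgn and Omd held none of these letters, and TGANTCA was in none of the 7 windows. The GC content was 31.0% for Aspn, 42.3% for Ogn, 55.3% for Prelp, 51.0% for Fmod and 61.0% for Chad, against a median of 52.7% over all windows. A match is a description of the letters and not of binding.

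Group means of the 10 members differed little between ST2 flox and ST2 WT muscle, from -0.03 for Fmod to 0.10 for Lum and Abi3bp, while 8 of the 10 spread more widely over the flox arrays than over the WT arrays. In 8 members (all but Fmod and Chad) the lowest of the 8 values was on flox array 4. Over all 15007 genes tested, 18.4% had their lowest value there and 66.1% had a wider range in flox. Limma, fitted over all 15007 genes with Benjamini-Hochberg adjustment, called 0 of the 9 members by genotype, and it called 0.0% of all genes. At an unadjusted p under 0.05 there were likewise 0 members, beside 3.79% of all genes. The genotypes overlapped in all 10 members, where 1.97% of all genes did not overlap (1.14% with flox higher). Of the 9 members past the filter, 5 had a higher and 4 a lower mean in flox, with a median difference of 0.05, against a median of -0.002 over all genes, of which 48.8% were higher. The members were chosen with these values in view, and nothing is read from the counts. Without flox array 1 the members' median was -0.05.

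**Figure D1:**
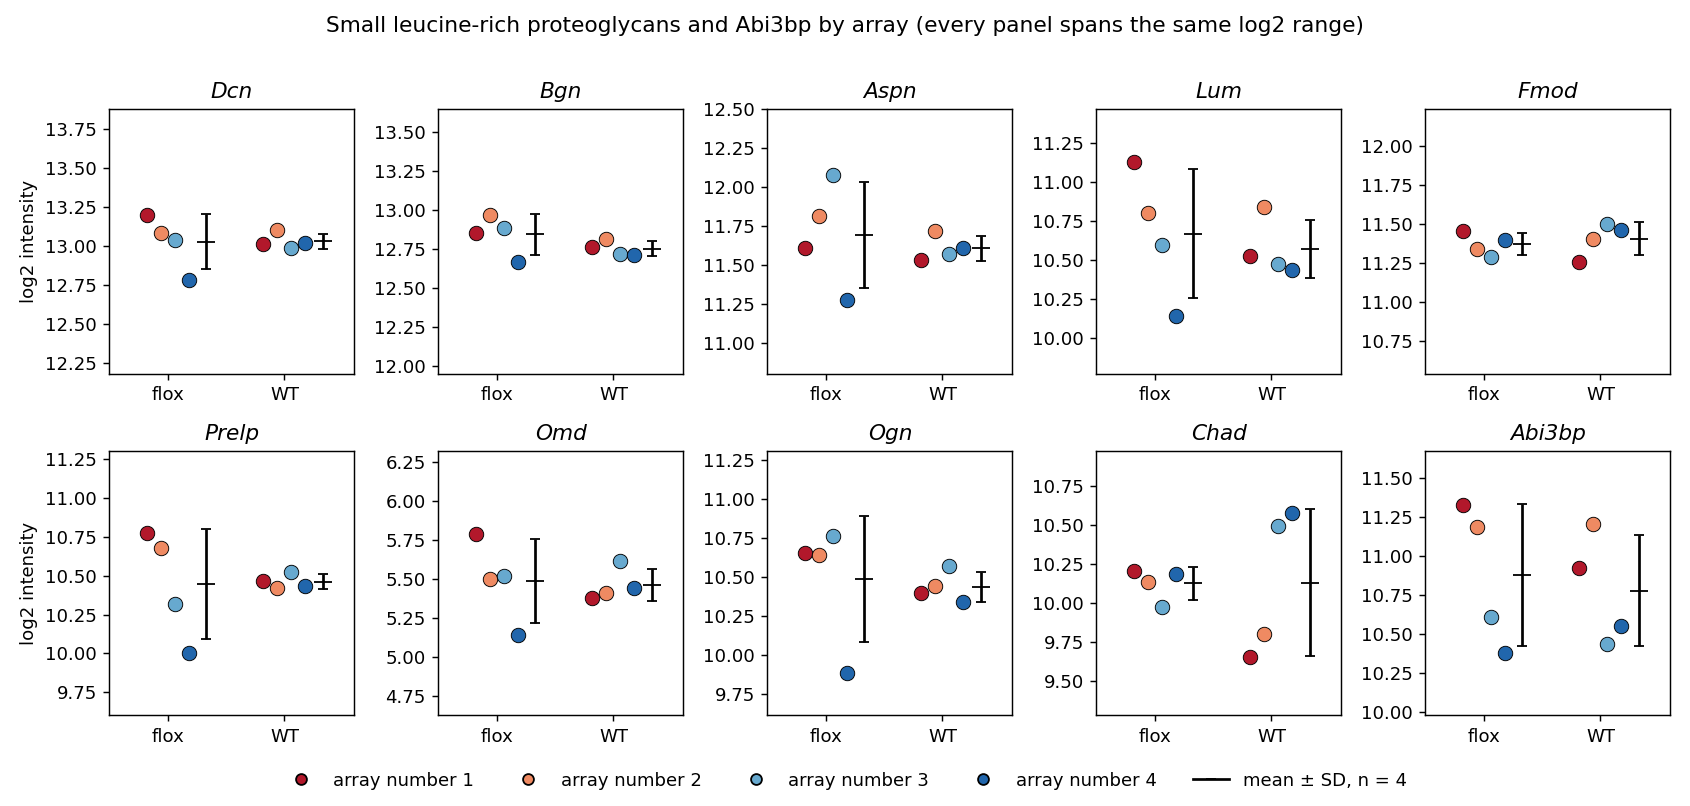
Log2 intensity of each member on every array, with ST2 flox left and ST2 WT right in each panel, points coloured by the number in the sample title, and bars for mean ± SD (n = 4 per group). All panels span the same log2 range. Flox array 4 is the lowest point for 8 of the 10 genes, and Chad splits the WT arrays, with 9.65 and 9.80 on arrays 1 and 2 and 10.49 and 10.58 on arrays 3 and 4.

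Of the class I members, Dcn and Bgn encode major proteoglycans of muscle connective tissue. Dcn encodes decorin, which binds collagen and TGF-beta. Its level was 13.20, 13.09, 13.04 and 12.78 on flox arrays 1 to 4, against 13.01, 13.10, 12.99 and 13.02 on WT arrays 1 to 4. The WT arrays lay within 0.11 of each other, and flox arrays lay above and below them, so that the means were 13.03 ± 0.18 in flox and 13.03 ± 0.05 in WT (SD, n = 4 each). Bgn encodes biglycan, which binds collagen and the dystroglycan and sarcoglycan complex of muscle fibres. It was at 12.85, 12.97, 12.89 and 12.66 in flox, against 12.77, 12.81, 12.72 and 12.71 in WT. Flox arrays 1 to 3 were above every WT array and flox array 4 was below them, and the difference of the means was 0.09 (SE 0.07). Aspn encodes asporin, which binds collagen and TGF-beta and carries a run of aspartates in place of glycosaminoglycan chains. It was at 11.61, 11.82, 12.08 and 11.27 in flox, against 11.54, 11.72, 11.57 and 11.61 in WT. The highest and the lowest value were both in flox, on arrays 3 and 4, and the means differed by 0.09 (SE 0.14), with -0.04 when flox array 3 was left out and 0.23 when flox array 4 was.

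Among the class II genes, Lum and Prelp varied most. Lum encodes lumican, a keratan sulfate proteoglycan known from the cornea that limits the thickness of collagen fibrils. Lum was at 11.13, 10.80, 10.60 and 10.14 on flox arrays 1 to 4, against 10.53, 10.84, 10.47 and 10.44 on WT arrays 1 to 4. Flox array 1 was the highest and flox array 4 the lowest of all arrays, 0.99 apart, and WT array 2 stood above the other WT arrays. The means were 10.67 ± 0.41 in flox and 10.57 ± 0.19 in WT (SD, n = 4 each). Prelp encodes a protein that ties basement membranes to collagen. It was at 10.77, 10.68, 10.32 and 10.00 in flox, against 10.47, 10.42, 10.52 and 10.43 in WT. The 4 WT arrays lay within 0.10 of each other, with 2 flox arrays above and 2 below all of them, so that the flox minus WT difference was only -0.02 (SE 0.14). Fmod encodes fibromodulin, a collagen-binding protein abundant in tendon. It was at 11.46, 11.34, 11.29 and 11.40 in flox, against 11.26, 11.40, 11.50 and 11.46 in WT, with a difference of -0.03 (SE 0.07). Here flox array 4 lay inside the range of the others. Omd encodes osteomodulin, a keratan sulfate protein of bone. It was dim, at 5.79, 5.50, 5.52 and 5.14 in flox, against 5.38, 5.41, 5.61 and 5.44 in WT, and was fitted only without the filter (difference 0.03, SE 0.12).

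Ogn, Chad and Abi3bp had 3 different patterns. Ogn encodes osteoglycin, also called mimecan, a collagen-binding protein of connective tissue. It was at 10.66, 10.64, 10.76 and 9.88 in flox, against 10.40, 10.44, 10.57 and 10.34 in WT. Flox arrays 1 to 3 were above every WT array and flox array 4 was below the lowest of them, so that the difference was 0.05 (SE 0.17) with all arrays, 0.25 with flox array 4 left out and -0.04 with flox array 3 left out. Chad encodes chondroadherin, a collagen- and integrin-binding protein of cartilage with no glycosaminoglycan chain. It was at 10.21, 10.13, 9.97 and 10.19 in flox, against 9.65, 9.80, 10.49 and 10.58 in WT. The flox arrays all fell into the gap between the low WT arrays 1 and 2 and the high WT arrays 3 and 4, and the means were 10.12 ± 0.11 in flox and 10.13 ± 0.47 in WT (SD, n = 4 each). Abi3bp was at 11.33, 11.19, 10.61 and 10.38 in flox, against 10.92, 11.21, 10.44 and 10.55 in WT. In both genotypes arrays 1 and 2 were high and arrays 3 and 4 low, and the genotype difference was 0.10 (SE 0.23).

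Flox array 4, the lowest array for 8 members, was left out in turn. The median difference of the 9 members was then 0.15, with 7 of 9 higher in flox, 3 of 9 at an unadjusted limma p under 0.05 (20.1% of all genes) and 0 of 9 past the adjusted threshold (0.0133% of all genes). The genotypes no longer overlapped for 2 of 9 members, Bgn and Ogn, beside 16.7% of all genes. Without it the differences were 0.15 for Bgn, 0.23 for Aspn, 0.27 for Lum, 0.13 for Prelp, 0.25 for Ogn and 0.26 for Abi3bp. For Dcn the difference was 0.08 without that array, against -0.06 when flox array 1 was left out instead. Lum (-0.06), Prelp (-0.13) and Abi3bp (-0.05) likewise had a lower mean in flox without flox array 1, and Chad moved between -0.17 without WT array 1 and 0.14 without WT array 4.

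The members were also set out by the numbers in the sample titles, arrays 1 and 2 of both genotypes against arrays 3 and 4. Abi3bp was the member that differed most, with 11.33 and 11.19 (flox) and 10.92 and 11.21 (WT) on arrays numbered 1 and 2, against 10.61 and 10.38 (flox) and 10.44 and 10.55 (WT) on those numbered 3 and 4. Its means were 11.16 and 10.49, a difference of 0.67 (SE 0.09), or 1.59-fold, and the number pairs did not overlap. Lum followed with 0.41 (SE 0.13), then Prelp with 0.27 (SE 0.12), Ogn with 0.15 (SE 0.16), Dcn with 0.14 (SE 0.07) and Bgn with 0.10 (SE 0.06). Chad went the other way, by -0.36 (SE 0.16), and Aspn (0.04, SE 0.15) and Fmod (-0.05, SE 0.07), like Ogn, differed by less than their errors. Of the 9 members past the filter, 7 were higher on arrays 1 and 2, 1 of 9 (Abi3bp) was called by limma with genotype in the model, where 0.373% of all genes were called, and 1 of 9 did not overlap, where 10.7% of all genes did not (4.54% in the same direction). Since this split was part of how the members were chosen, nothing is read from these counts, and the values of Abi3bp are a description. The 56 genes called in all became 3 (without WT array 2 or 4) to 175 (without WT array 1). Of the alternatives tried, 9 called 1 member and 6 called 0.

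**Figure D2:**
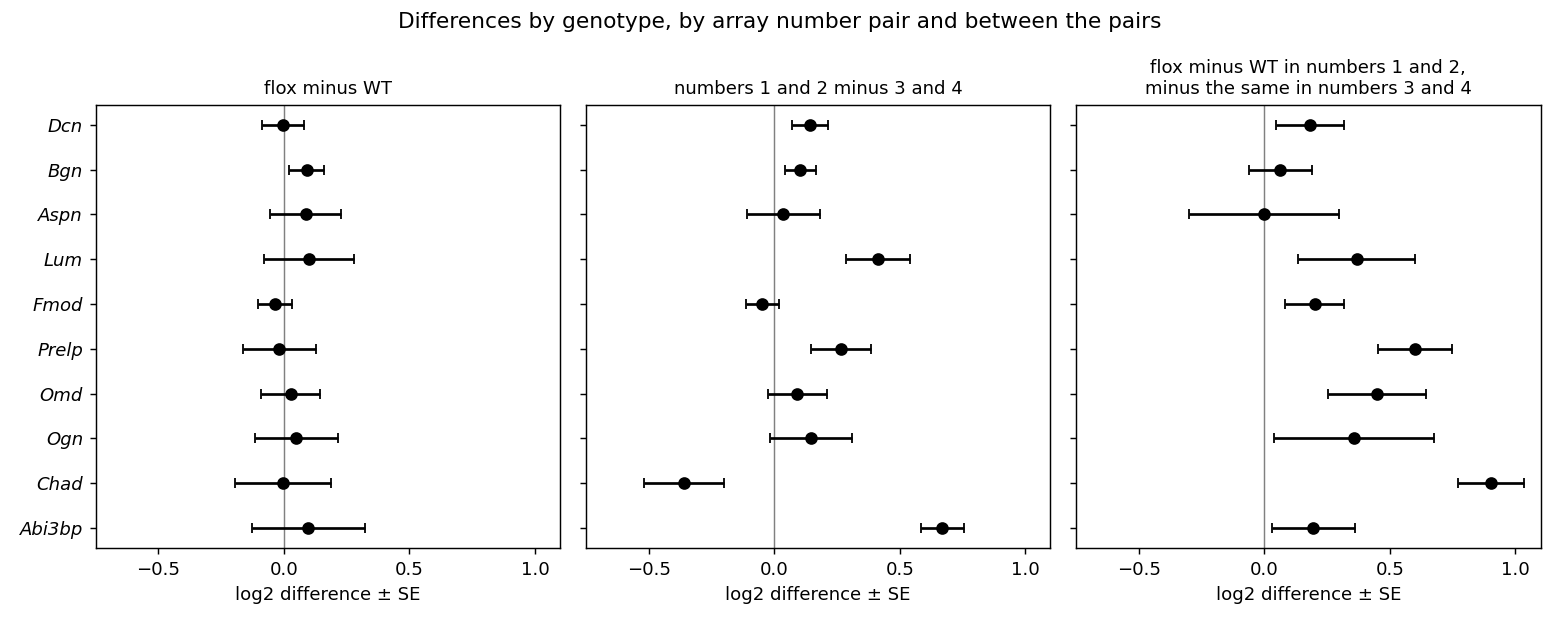
Log2 differences of each member with limma's SE (bars, n = 8 arrays), for flox minus WT (left), arrays numbered 1 and 2 minus arrays numbered 3 and 4 (middle), and flox minus WT in arrays 1 and 2 less the same in arrays 3 and 4 (right). By genotype all members lie between -0.03 and 0.10. By number Abi3bp stands at 0.67 and Chad at -0.36, and Chad has the largest value on the right, 0.90.

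Within arrays 1 and 2 the mean of all 10 members was higher in flox, and within arrays 3 and 4 that of 3 of 10 was. The shares of all genes higher in flox within each number pair were not computed, so nothing is read from these counts. Another measure was whether the flox minus WT difference was larger on arrays 1 and 2 than on arrays 3 and 4. That held for all members but Aspn (0.086 against 0.087) and for 59.1% of all 15007 genes. Among the 10031 genes left by the stricter cut on brightness (50th percentile) the share was 73.9%. After quantile normalization it was 47.9% of the 15007 genes. The 9 members past the filter were bright, at percentiles 92.0 to 99.8 of all genes. Whether they differ here from genes of like brightness was not tested. Chad was at 10.21 and 10.13 in flox, against 9.65 and 9.80 in WT, on arrays 1 and 2, a difference of 0.45. On arrays 3 and 4 it was at 9.97 and 10.19 in flox, against 10.49 and 10.58 in WT, a difference of -0.46. Prelp likewise differed by 0.28 on arrays 1 and 2 and by -0.32 on arrays 3 and 4. These 2 of the 10 members had genotypes apart within both number pairs and in opposite directions, as had 8.94% of all genes. The change of the genotype difference between the number pairs was 0.90 for Chad (SE 0.13) and 0.60 for Prelp (SE 0.15). Limma's interaction term called 0 of 9 members and 0.0% of all genes, with 2 of 9 members and 15.3% of all genes at an unadjusted p under 0.05. Genotype and number both entered the choice of the members, so nothing is read from these counts either.

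Dcn and its neighbour Lum had nearly the same profile over the 8 arrays, with a Pearson r of 0.95 (Spearman's rho 0.93), and 0.98 without flox array 4. These and the other correlations are descriptions over 8 arrays of 2 genotypes, which share flox array 4 and the number pairs. Prelp and Abi3bp went with this pair (r with Dcn 0.88 and 0.81, with Lum 0.83 and 0.90). By rank Abi3bp kept close to the pair (rho 0.93 with Dcn and 0.95 with Lum), and Prelp less so. The rho of Prelp was 0.45 with Dcn, 0.52 with Lum and 0.55 with Abi3bp. That of Ogn was 0.62 with Dcn and 0.71 with Lum. Without flox array 4, Prelp had an r of 0.67 with Dcn, 0.68 with Lum and 0.61 with Abi3bp. Aspn, Ogn and Bgn formed a trio, with r of 0.83 between the near neighbours Aspn and Ogn, 0.77 between Aspn and Bgn and 0.76 between Ogn and Bgn. Without flox array 4 these were 0.69, 0.67 and 0.70, while r of Ogn with Dcn fell to 0.33, against 0.80 with all arrays. Fmod and Chad went together (r 0.79, and 0.79 without flox array 4) and with none of the others, since their r with the other 7 members ran from -0.46 to 0.17. The neighbours Prelp and Fmod, whose promoter windows are printed above, had an r of 0.17. The promoter windows of Aspn and Ogn, which stand either side of Omd, were the windows of lower GC content among the 5 shown. That of Omd, which is not shown, had 37.7%, below that of Ogn. The 5 were picked by how levels moved over the arrays, and a link with GC content was not tested.

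**Figure D3:**
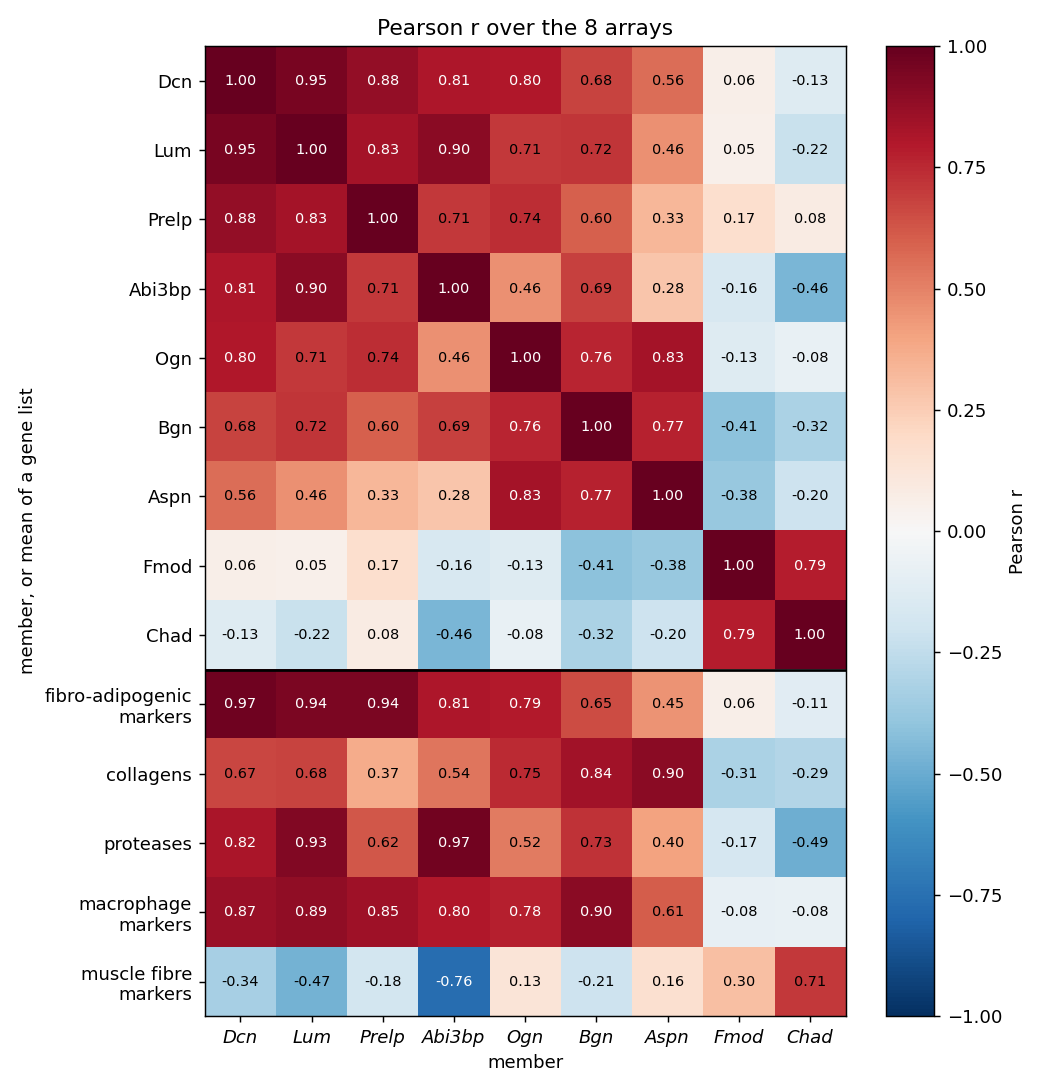
Pearson r over the 8 arrays between the 9 members past the filter (upper block) and between each member and the mean of 5 gene lists (lower block). Dcn, Lum, Prelp and Abi3bp form a block with r of 0.71 to 0.95, Fmod and Chad stand apart with 0.79 between them, and fibro-adipogenic markers reach 0.97 with Dcn. Spearman's rho of Prelp with Dcn, Lum and Abi3bp was only 0.45, 0.52 and 0.55.

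The genes with the profile most like Dcn were Pdgfra, the receptor that marks fibro-adipogenic progenitors (r 0.997, and 0.991 without flox array 4), and Ccn3, a matricellular protein (r 0.991). Pdgfra was at 10.36, 10.09, 9.98 and 9.38 in flox, against 9.97, 10.12, 9.90 and 9.92 in WT. It shows the same high flox array 1 and low flox array 4 as Dcn, on a wider scale. Abi3bp was most like Serpina3n, a serine protease inhibitor of the acute phase (r 0.990), and Csf2rb2, a cytokine receptor subunit (r 0.990). Serpina3n was at 11.41, 10.91, 9.82 and 8.99 in flox, against 10.43, 11.05, 9.12 and 9.72 in WT. The genes nearest to Lum were Rin2 (r 0.987) and Gsr (r 0.982), those nearest to Prelp Sesn1 (r 0.989) and Cab39l (r 0.987), and those nearest to Bgn Dbf4 (r 0.989) and Prelid1 (r 0.984). Aspn was nearest to Phf6 (r 0.978) and Gbp7 (r 0.966), and Ogn to Tnfsf10 (r 0.963) and Mmp23 (r 0.957). Fmod was nearest to Pcmtd2 (r 0.973) and Ypel4 (r 0.946), and Chad to Nkiras2 (r 0.959) and Thoc7 (r 0.957). For the mean of the 8 leucine-rich members past the filter the nearest were Bivm (r 0.981), Ggh (r 0.981), Snrpg (r 0.978), Crtap, a subunit of the collagen prolyl hydroxylation complex (r 0.98), and Sash1 (r 0.974). With 15007 genes and 8 arrays, 59 genes reached an r over 0.95 with Dcn and 78 with Abi3bp.

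Markers of several cell types varied over the same arrays as the members. Of the 14 fibro-adipogenic and fibroblast markers 13 had a row and were past the filter, and none of them was a member. Their summed intensity was 9596 to 14694 in flox and 11689 to 12582 in WT, and the mean of the centred log2 levels was 0.31, 0.10, -0.03 and -0.38 over flox arrays 1 to 4, against -0.05 to 0.05 on the WT arrays. The r of this list mean was 0.97 with Dcn, 0.94 with Lum, 0.94 with Prelp and 0.81 with Abi3bp, but 0.06 with Fmod and -0.11 with Chad. Macrophage markers (15 of 16 with a row, all 15 past the filter) had sums of 12488 to 20439 in flox and 14118 to 16962 in WT, list means of 0.34, 0.40, 0.05 and -0.43 on flox arrays 1 to 4, and an r of 0.90 with Bgn, 0.89 with Lum, 0.87 with Dcn, 0.85 with Prelp and 0.80 with Abi3bp, but -0.08 with Fmod and -0.08 with Chad. Muscle fibre markers had sums of 99662 to 105749 in flox and 97865 to 106610 in WT, and an r of 0.71 with Chad and -0.76 with Abi3bp. The part of these cell types in the members' profiles was not tested.

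**Figure D4:**
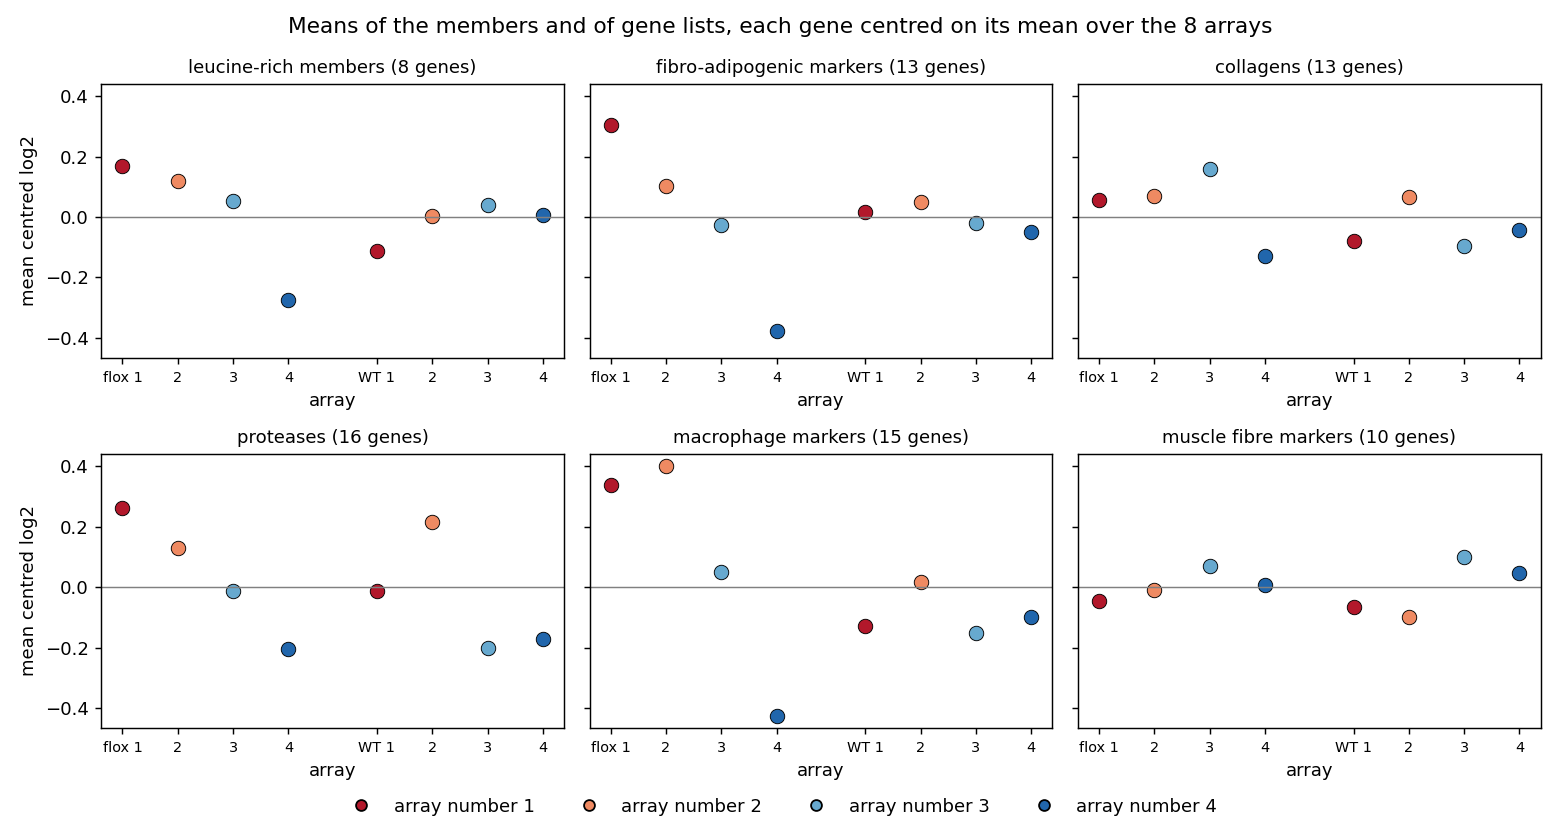
Mean over genes of the log2 level, each gene centred on its mean over the 8 arrays, for the 8 leucine-rich members past the filter and for 5 gene lists, on each flox array (left) and WT array (right), with points coloured by array number. The members were at 0.17, 0.12, 0.05 and -0.27 on flox arrays 1 to 4, and flox array 4 is also the lowest array for fibro-adipogenic markers, collagens, proteases and macrophage markers.

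Chad, Omd and Fmod are also expressed in cartilage, bone and tendon, so markers of these tissues were looked at. Of 16 cartilage and bone markers 14 had a row and 8 were past the filter. Among the 6 below it were the cartilage matrix genes Matn1, Cnmd and Hapln1 and the bone genes Ibsp, Dmp1 and Phex. The sums of the 8 were 1474 to 1706 in flox and 1617 to 1643 in WT. All 8 tendon markers were past the filter, with sums of 5793 to 7134 in flox and 6130 to 6764 in WT and list means between -0.07 and 0.11. The tendon list mean had an r of 0.49 with Fmod and 0.14 with Chad, but 0.88 with Lum and 0.83 with Dcn. That of the cartilage and bone markers had an r of -0.06 with Fmod and -0.20 with Chad. The part of these tissues in the members' profiles was not tested. Skin keratinocyte markers (5 of 8 past the filter) had a list mean of 1.16 on WT array 4 and of -0.36 to 0.08 on the other arrays. The members' levels on WT array 4 lay within those of the other arrays, apart from Chad, which was highest there.

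The rest of the family was near the filter or little changed. Of 9 other small leucine-rich proteoglycans 8 had a row, and Epyc, Optc and Nyx were below the filter. Of the 5 tested, 2 had a higher and 3 a lower mean in flox, with a median of -0.03. Ecm2, a leucine-rich matrix gene beside Aspn, was at 9.17, 9.37, 9.18 and 8.86 in flox, against 8.93, 8.93, 9.19 and 8.99 in WT (difference 0.14, SE 0.10). Kera, the corneal class II gene beside Lum, differed by 0.07 (SE 0.12), Podn by -0.07 (SE 0.07) and Chadl by -0.13 (SE 0.09). None was called, beside 0.0% of all genes, and 0 of 5 had an unadjusted p under 0.05. By number 1 of 5 was higher on arrays 1 and 2, against 7 of 9 members, a contrast for which no test was run.

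Enzymes that build and sulfate the glycosaminoglycan chains also differed little by genotype. Of the 31 tested, 19 had a higher and 12 a lower mean in flox, with a median of 0.02 and 0 at an unadjusted limma p under 0.05. The smallest p belonged to Chsy1, a chondroitin synthase (0.13, SE 0.06), Chst7, a sulfotransferase (-0.13, SE 0.08), B3galt6, which builds the linker of the chain (0.11, SE 0.06), and Ust, a uronyl sulfotransferase (0.17, SE 0.11). By number 21 of 31 were higher on arrays 1 and 2, with a median of 0.08, and 8 had an unadjusted p under 0.05, or 0 after adjustment. Over all genes 43.3% were higher on arrays 1 and 2, with a median of -0.02, and 18.6% had an unadjusted p under 0.05. The genotype median was 0.09 when flox array 4 was left out and -0.003 when flox array 1 was.

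Collagens that the family binds had a higher mean in flox for 12 of 13 genes, with a median of 0.07, and 0 of 13 had an unadjusted p under 0.05. With flox array 4 left out the median was 0.15 (12 of 13 higher), and with flox array 3 left out it was 0.04 (11 of 13 higher). Col6a3 (0.14, SE 0.08), Col6a2 (0.12, SE 0.08), Col5a1 (0.09, SE 0.06) and Col5a2 (0.17, SE 0.11) had the smallest p. Their list mean was 0.06, 0.07, 0.16 and -0.13 on flox arrays 1 to 4, against -0.10 to 0.06 on the WT arrays, and its r was 0.90 with Aspn and 0.84 with Bgn but -0.31 with Fmod. Of 14 growth factors and receptors bound by the family 11 had a higher mean in flox, with a median of 0.04 and 2 at an unadjusted p under 0.05, beside 3.79% of all genes. The list median was 0.07 when flox array 4 was left out and 0.02 when flox array 1 was. Tgfb1, a ligand held by decorin, was at 9.13, 9.17, 9.16 and 9.14 in flox, against 8.91, 8.98, 9.04 and 8.94 in WT. Every flox array lay above every WT array, with a difference of 0.18 (SE 0.05) that did not pass (limma adjusted p 0.912), and 1.14% of all genes were apart in this direction. Ccn2, which decorin also binds, differed by 0.21 (SE 0.08), Igf1r by 0.15 (SE 0.11) and Mstn by -0.13 (SE 0.12).

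The list of proteases that cut the family and related matrix proteins also held Pcolce and Pcolce2, enhancers of procollagen C-proteinase that are no proteases. In this list 12 of 16 genes had a higher mean in flox, with a median of 0.08. The median was 0.18 with flox array 4 left out and 0.03 with either flox array 1 or WT array 3 left out. Adamts1, a metalloproteinase with thrombospondin repeats, differed by 0.19 (SE 0.07, limma adjusted p 0.912) and was the only gene of the list at an unadjusted p under 0.05, and Bmp1, the procollagen C-proteinase that also processes Bgn, differed by 0.13 (SE 0.13). By number Mmp13, a collagenase, was the only gene of the list that was called. Mmp13 was at 10.24 and 9.64 (flox) and 9.52 and 10.81 (WT) on arrays 1 and 2, against 8.52 and 8.42 (flox) and 7.50 and 7.40 (WT) on arrays 3 and 4. It was higher on all 4 arrays numbered 1 and 2, by 2.09 (SE 0.31, limma adjusted p 0.0332), beside 0.373% of genes called. The list was chosen with earlier results of these data known, so its values by number are a description. No gene of the list was called when flox array 1, 2 or 3 or WT array 3 or 4 was left out. Mmp3 (0.86, SE 0.20), Mmp2 (0.33, SE 0.09), Adamts5 (0.39, SE 0.11) and Tll1 (0.23, SE 0.07) were also higher on arrays 1 and 2 without overlap. Over all genes, 4.54% were apart in this direction. Mmp12 (-0.49, SE 0.17), Adamts9 (-0.15, SE 0.06), Adamts4 (-0.10, SE 0.07) and Tll2 (-0.04, SE 0.05) were lower on arrays 1 and 2. The mean of the whole list, Pcolce and Pcolce2 included, had an r of 0.97 with Abi3bp and 0.93 with Lum. Among 21 other proteoglycan core proteins 13 had a higher and 8 a lower mean in flox, with a median of 0.04, and the 4 with the smallest p were the heparan sulfate proteoglycan Sdc3 (0.21, SE 0.09), Ncan (-0.20, SE 0.09), the granule proteoglycan Srgn (0.26, SE 0.13) and the large chondroitin sulfate proteoglycan Vcan (0.37, SE 0.24). Of these, Sdc3 and Ncan had an unadjusted p under 0.05, and 0 of 21 passed the adjusted threshold.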

How the data were processed

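RNA of whole injured muscle was extracted with TriZol and labelled with the Ambion WT Expression Kit for 1 Mouse Gene 1.0 ST array (Affymetrix) per sample, per the labels. The authors deposited intensity values on a linear scale (5.81 to 19080), made with RMA in Affymetrix Power Tools per the submitters' processing notes. Their versions are not given here. RMA assumes that most genes do not change and compresses large differences of dim probesets. The number of arrays limits the precision.

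From these values, log2 was taken with a pseudocount of 0. Of 24922 rows, 21425 named 1 gene, 1399 several and 2098 none in the platform annotation, and 21347 matched a RefSeq gene identifier (GRCm38.p6), with 0 symbols changed. The brightest row per gene was kept if its mean reached the 25th percentile of all rows, which left 15007 genes. Limma 3.58.1 in R 4.3.3 was fitted on group, on group and number pair, and with their interaction, with Benjamini-Hochberg adjustment over all genes and a threshold of 0.05, after it had been tested on simulated data. List values exclude the members. Named genes were the members, up to 4 genes per list with the smallest p by genotype, list genes called in any fit, and the nearest genes by r (2 per member, 5 for the mean). In the protease list, genes that were apart by number or lower on arrays 1 and 2 were named too. So were Pcolce and Pcolce2. The members and the 18 lists were chosen with earlier results of these data known. Same-numbered samples had deviations that correlated across genes by 0.01, 0.35, 0.25 and 0.05 for numbers 1 to 4, which does not pair them. The WT array that correlated best with flox arrays 1 to 4 was WT array 2, 2, 4 and 3, each time within the same number pair. Alternatives were the filter, normalization, row rule, prior, blocks and leaving out each array.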

Additional observations from a re-analysis of the deposited data

Results flagged for a closer look

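Among the members, Ogn on flox array 4 (9.88) lay so far below the other flox arrays (10.64 to 10.76) that the gap took up 0.862 of the range of the group, above Dixon's critical value at 95% for 4 samples. The list mean of the skin keratinocyte markers on WT array 4 (1.16, 0.95 of the range) and that of the adipocyte markers on WT array 1 (-0.15, 0.831 of the range) were also apart from the rest of their group. These are 3 of 56 groups examined, where chance gives about 1 in 20.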

How the results depend on the processing

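The differences of the 10 members by genotype and by number moved by less than the SD between arrays in all 320 comparisons with an alternative. Small ones changed sign without single arrays. By genotype much of this was fixed in advance, since leaving out a single array of a group cannot move a difference by that SD. The filter, prior and row rule leave the members' estimates as they are, each member having a single row. The count therefore says little on how firm the differences are. By genotype 0 genes were called, also under each filter, normalization, row rule, prior and block tried, and 0 to 2 without single arrays (2 without flox array 4, of which 1 was in a list and 0 were members). With the title number as replicate block, 0 genes were called, 694 had an unadjusted p under 0.05 against 569 without the block, and 929 with the number pair as a block. The members' differences were the same under both blocks, which the balanced design fixes in advance. By number the 56 genes called became 29 with no filter, 258 with the filter at the 50th percentile, 341 with quantile normalization, 322 with cyclic loess and 244 with a trended and robust prior, and 3 to 175 without single arrays, with 0 to 1 members called. For the interaction 0 genes became 0 to 328 without single arrays (328 without flox array 3 and 6 without WT array 3), with 0 to 3 members. Without flox array 3, flox array 4 is alone in its arm and is assumed to vary like the other groups, so these calls say nothing on the members. The causes were not tested, beyond the fewer samples of these fits. No T cell marker passed the filter at the 50th percentile, so that list had no value there. Omd was too dim for the filter, and its values have little weight.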

Other observations

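By genotype, 14 of 15 macrophage markers were higher on average in flox (median 0.20), as were 6 of 13 fibro-adipogenic markers (median -0.03), 5 of 8 tendon markers (median 0.02), 2 of 8 cartilage and bone markers (median -0.07), 3 of 10 muscle fibre markers (median -0.01) and 0 of 5 skin markers (median -0.43), with 0 called in each list. The skin median rests on WT array 4, where Krt10 was at 9.66, and was -0.08 without it, with 2 of 5 higher. Without flox array 4 the median was 0.34 for macrophage and 0.11 for fibro-adipogenic markers, and -0.02 for satellite cell and myoblast markers. The 6 T cell markers past the filter (of 9 listed) were all higher on average in flox, with a median of 0.17 and 0 called, and their list mean was 0.21, 0.31, 0.11 and -0.10 on flox arrays 1 to 4, against -0.16 to -0.11 on the WT arrays. Cd3g, a chain of the T cell receptor complex, differed by 0.85 (SE 0.28, limma adjusted p 0.912). It was at 7.63, 7.92, 7.36 and 6.27 on flox arrays 1 to 4, against 6.32, 6.35, 6.51 and 6.60 on WT arrays 1 to 4. Flox array 4 was thus the lowest of all arrays. Of the 8 satellite cell and myoblast markers 6 were higher in flox (median 0.05), of 7 endothelial markers 6 (median 0.09), of 7 pericyte and smooth muscle markers 5 (median 0.09), of 4 Schwann and nerve sheath markers 2 (median -0.002) and of 5 adipocyte markers 1 (median -0.03), with 0 called in each list. Satellite cell markers had an r of -0.84 with Dcn and of -0.84 with Prelp over the 8 arrays, opposite in sign to that of the fibro-adipogenic markers. With Bgn it was only -0.25 and with Aspn -0.06. Without flox array 4 it was -0.69 with Dcn and with Prelp, but 0.15 with Bgn, 0.63 with Aspn and 0.29 with Ogn. The list mean of the satellite cell markers was highest on flox array 4 (0.15), where Dcn was lowest. Vcam1, a gene of this list, was itself lowest there (8.63).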
